A study of Mus musculus with 9 samples.

Results

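The genes described here encode the proteasome, its activators, its inhibitor and the chaperones that assemble it. They were taken by symbol, as every row of the count table whose name begins with Psma, Psmb, Psmc, Psmd, Psme, Psmf or Psmg followed by a digit, which gave 50 of 24411 genes. Of these, 31 were constitutive subunits of the 20S core and the 19S cap, 5 were interferon-inducible subunits (Psmb8, Psmb9, Psmb10, Psme1 and Psme2) and 7 were assembly chaperones. The others were the activators Psme3 and Psme4, the inhibitor Psmf1, Psme2b, which is a copy of Psme2, the core subunits Psma8 and Psmb11 of testis and thymus, and Psmc3ip, which fits the name pattern but is no subunit. Poly(A) RNA came from whole livers of mice on a C57BL/6 background at 3 months of age, with 3 livers in each of 3 groups. The mice called cont. carried floxed Atg7 alleles and no Cre recombinase. The Atg7-KO mice carried the same alleles plus Cre recombinase driven by the albumin promoter, which directs the deletion to hepatocytes. The third group, called S351A here, was Atg7-KO with alanine in place of a serine of p62, in the stretch that binds KEAP1. The labels of replicates 2 and 3 give a different p62 position for one allele in the genotype field, so membership of this group rests on the sample titles.

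The proteasome is the protease that degrades ubiquitin-tagged proteins. Its 20S core is a barrel of alpha and beta rings, in which the beta subunits Psmb5, Psmb6 and Psmb7 carry the active sites, and its 19S cap binds, unfolds and feeds in the substrate. Interferons induce Psmb8, Psmb9 and Psmb10, which take the places of Psmb5, Psmb6 and Psmb7 in newly made cores, and Psme1 and Psme2, which form the PA28 activator. Cores of this kind are called immunoproteasomes. They supply peptides for MHC class I and are abundant in leukocytes. The constitutive genes are driven by NRF1 (Nfe2l1) when proteasome activity falls short, and some of them also by NRF2 (Nfe2l2). NRF2 is held down by KEAP1, and p62, which accumulates when Atg7 and with it autophagy is lost, binds KEAP1. The comparison of Atg7-KO with cont. thus asks how proteasome genes stand in livers without autophagy, and that of S351A with Atg7-KO asks what weaker binding of KEAP1 to p62 changes in them.

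Levels are CPM, counts relative to the library total and scaled between libraries by TMM factors. Fold changes come from edgeR's quasi-likelihood test of all 11199 genes that passed a filter on low counts. A gene was called when its Benjamini-Hochberg adjusted p was under 0.05 and its fold change above 1.5. Of the 50 genes, 47 passed the filter. Psmb11 and Psmc3ip were at or under the floor of 3 counts in every library, and Psma8 reached 5 counts in 1 library. The libraries held 713835 to 15426566 counts, and each S351A library (at most 792366) was smaller than each of the others (at least 1875314), so depth and the p62 mutation cannot be told apart. Atg7 was called lower in Atg7-KO (log2 fold change -0.74 ± 0.19, SE, adjusted p = 0.00758) and in S351A (-1.07 ± 0.21, 0.00319). In whole livers, fewer cells of a type and less RNA per cell cannot be told apart. Nothing in the labels ties a replicate number to a litter or a day. By Xist and Y-linked genes, 2 of the cont. livers were male and 1 female, and in each of the other groups 1 was male and 2 were female, so sex was not balanced between them.

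Promoter sequences of catalytic subunits and of Psme1 are shown first, because Psmb5 and Psmb6 on one side and Psmb9 and Psme1 on the other moved in opposite directions. RefSeq promoters of the build GRCm38.p6, 250 bases before to 50 bases after the start of transcription, were given for 42 of the 50 genes, Psmb7 not among them. The stretch upstream of Psmb6 lies at chr11:70525107-70525356 on the + strand, and that of Psmb5 at chr14:54618023-54618245 on the - strand. Both are outside annotated exons. Capitals mark matches to TGANNNNGC, the core of the antioxidant response element that NRF1 and NRF2 bind. For Psmb9 and Psme1, whose upstream bases lie mostly in annotated exons, only the match with 10 bases on each side is shown.
Psmb6: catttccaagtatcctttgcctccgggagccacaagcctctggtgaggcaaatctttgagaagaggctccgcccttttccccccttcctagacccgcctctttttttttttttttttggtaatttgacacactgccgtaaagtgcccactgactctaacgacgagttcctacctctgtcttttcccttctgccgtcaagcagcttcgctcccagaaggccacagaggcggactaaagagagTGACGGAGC
Psmb5: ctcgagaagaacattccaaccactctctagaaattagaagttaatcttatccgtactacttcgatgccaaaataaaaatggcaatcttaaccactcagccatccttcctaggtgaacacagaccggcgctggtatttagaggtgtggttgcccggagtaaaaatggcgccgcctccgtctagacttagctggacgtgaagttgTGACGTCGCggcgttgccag
Psmb9: ccttgcgcgaTGATGGGGCggggcctcag
Psme1: gagctgtgctTTCGCTTTCccttcccgct

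In the Psmb9 stretch (chr17:34187372-34187400, - strand) the capitals mark TGANNNNGC at -60 from the start of transcription, and in Psme1 (chr14:55578494-55578522, + strand) GAAANNGAA, a core of interferon regulatory factor sites, on the other strand at 11 bases into the transcript. Both strands were searched. TGANNNNGC was in 15 of 27 promoters of constitutive subunits (55.6%) and 4 of 6 of inducible ones (66.7%), against 41.3% of all 32851 promoters of that length. Some genes have more than 1 promoter here, and the match in Psme2 was counted in both of its overlapping promoters, so that by gene the motif was found for 14 of 25 constitutive and 3 of 5 inducible genes, against 45% of all 27025 genes with such promoters. GAAANNGAA was in 4 of 27 (14.8%) and 1 of 6 (16.7%), against 8.56% of all promoters. CCAAT, the NF-Y motif, was in 10 of 27 (37%) and 1 of 6 (16.7%), against 37.4%. These letters are common, and a match is no evidence of binding in these livers.

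In Atg7-KO livers, genes of the constitutive proteasome were mostly lower and those of the immunoproteasome mostly higher than in cont. Over the 47 tested genes, 18 were called lower, against 18.1% of all genes tested, and 6 were called higher, against 19.9%. Of the 31 constitutive subunits, 17 were called lower, 1 (Psmd8) higher and 13 were not called, with a median log2 fold change of -0.78 where the median over all tested genes was -0.03. Of the 5 inducible subunits, 3 were called higher and none lower, with a median of 0.92. The groups did not overlap for 24 genes that were lower in every Atg7-KO library, where 24.9% of all tested genes did so, and for 8 that were higher, where 26.7% did so.

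**Figure D1:**
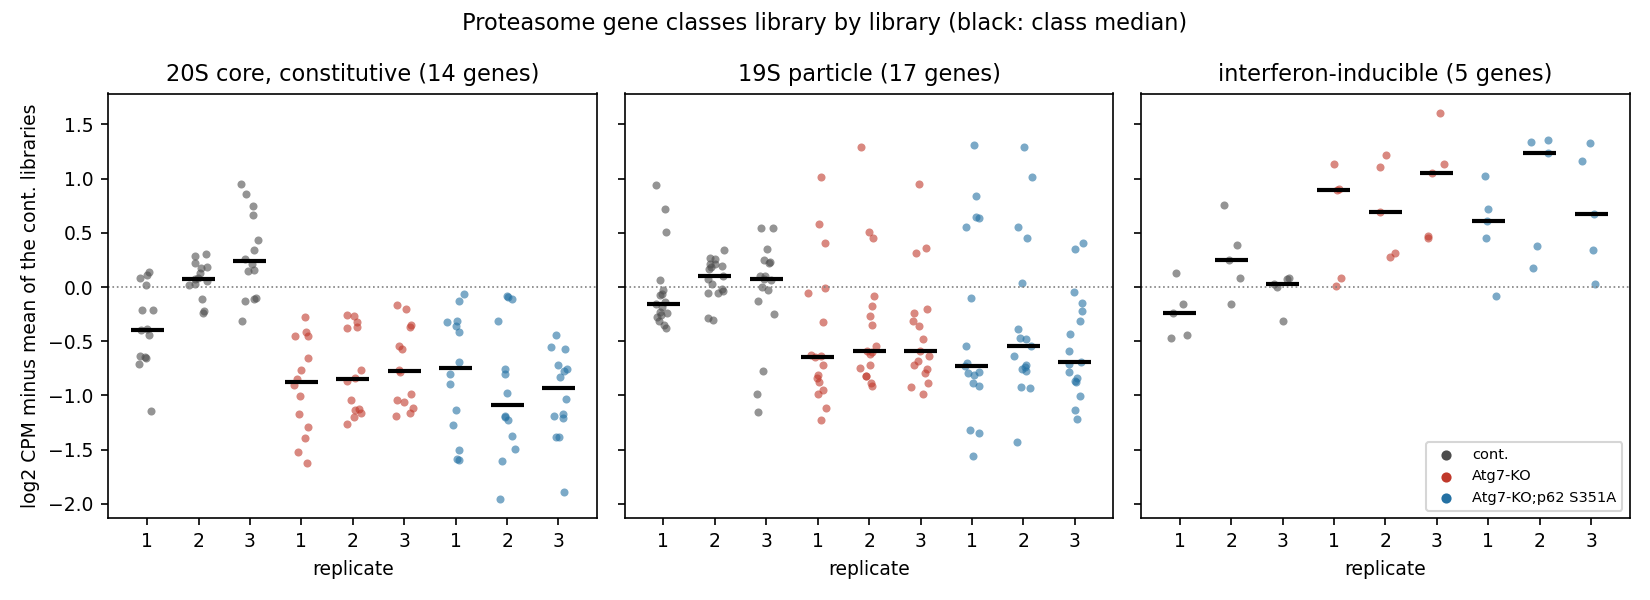
Log2 CPM of each gene minus its mean over the cont. libraries (vertical axis) in the 9 libraries, replicates 1 to 3 of cont. (grey), Atg7-KO (red) and S351A (blue), for 14 constitutive core genes, 17 genes of the 19S particle and 5 inducible genes. Each point is a gene and the black line the median of its class. The medians of the constitutive classes lie below 0 and those of the inducible class above 0 in all 6 Atg7-KO and S351A libraries, and the cont. libraries differ among themselves.

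All 14 constitutive 20S genes had fitted changes below 0 in Atg7-KO, and 8 of them were called lower, where 18.1% of all tested genes were. The catalytic subunits were among these. Psmb5, the chymotrypsin-like subunit, was at 102, 146 and 161 CPM in cont. and at 46.2, 55.6 and 77.8 CPM in Atg7-KO, so that no Atg7-KO library reached the lowest cont. library. Its log2 fold change was -1.20 ± 0.27 (SE, adjusted p = 0.00358). Psmb6, the caspase-like subunit, was at 296, 308 and 271 CPM in cont. and between 119 and 140 CPM in Atg7-KO (-1.17 ± 0.24, 0.002), with little spread within either group. Psmb7, the trypsin-like subunit, was at 60.4, 70.8 and 131 CPM in cont. and at 45.5, 45.9 and 41.2 CPM in Atg7-KO (-1.00 ± 0.27, 0.0107). Its change rests in part on cont. replicate 3, without which it was -0.58 and was not called.

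The other 20S subunits form the rings around these sites. The furthest fall among the alpha subunits, which gate the barrel, was that of Psma2, from 118, 142 and 152 CPM to 43.9, 65.7 and 62.7 CPM (-1.26 ± 0.22, 0.000849). Psma3 (-1.11) and Psma5 (-1.07) were also called lower. Psmb4, a beta subunit without a catalytic site, fell by 1.27 on the log2 scale (SE 0.26, adjusted p = 0.00216), and Psmb1 by 1.07. Psmb2 stood at -1.00 but was not called (0.0592), its cont. libraries running from 14.0 to 58.0 CPM. At the other end, Psma7 (-0.31 ± 0.21, 0.25) and Psmb3 (-0.36 ± 0.20, 0.178) were lower in every Atg7-KO library than in every cont. library and did not pass the test.

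**Figure D2:**
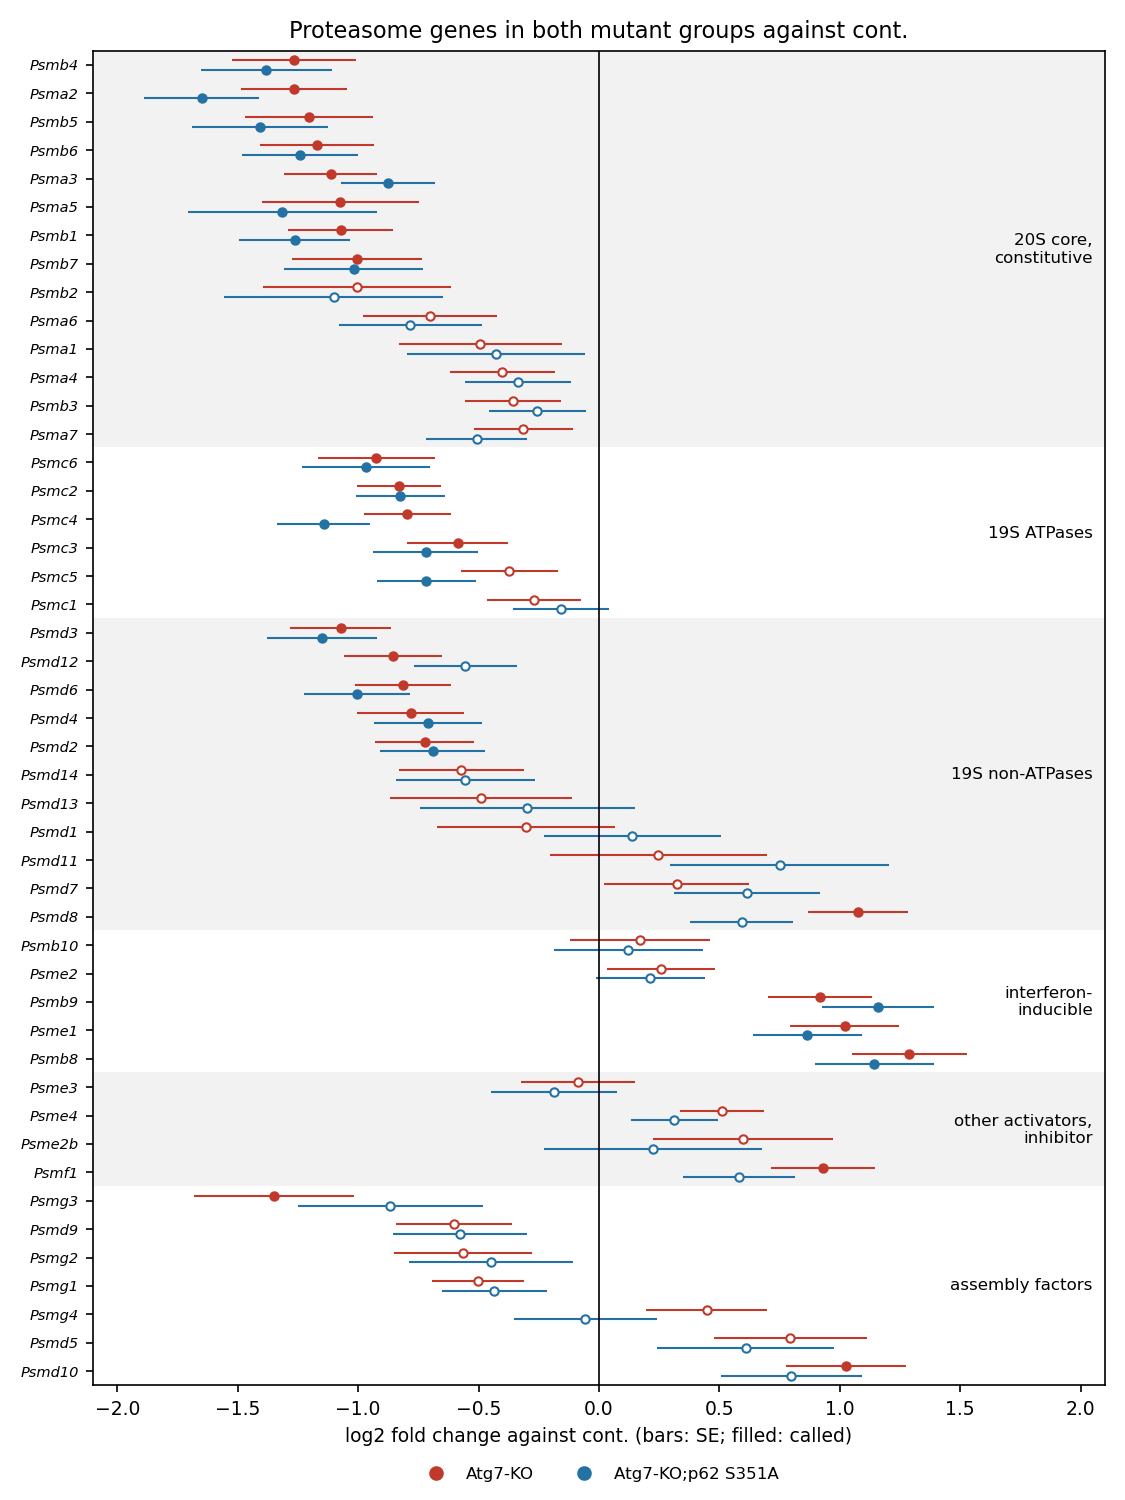
Log2 fold change with its SE (horizontal axis) of the 47 tested genes by class, in Atg7-KO (red) and in S351A (blue), both against the same cont. libraries. Filled points were called. Constitutive core genes lie to the left of 0 in both groups, from -0.31 to -1.27 in Atg7-KO, and the 5 inducible genes to the right.

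In the 19S particle, 9 of 17 genes were called lower and 1 higher, where 18.1% and 19.9% of all tested genes were. Its 6 ATPases (Psmc1 to Psmc6), the ring that unfolds substrates, all had fitted changes below 0, and 4 were called. Psmc6 fell by 0.92 (SE 0.24, adjusted p = 0.00973), from between 52.8 and 87.8 CPM to between 37.0 and 38.3 CPM, and Psmc4 by 0.79 (SE 0.18, 0.00406). Psmc1 was the ATPase closest to no change (-0.27 ± 0.20, 0.302). Of the 11 non-ATPases, Psmd3, a scaffold subunit of the lid, fell most, from 67.4, 93.3 and 86.1 CPM to 34.3, 43.1 and 40.7 CPM (-1.07 ± 0.21, 0.00168). Psmd2, Psmd4, which is a ubiquitin receptor, Psmd6 and Psmd12 were the others called lower, between -0.72 and -0.85.

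Psmd8, a lid subunit, went the other way. It was at 49.0, 56.7 and 68.4 CPM in cont. and at 117, 141 and 112 CPM in Atg7-KO (1.08 ± 0.21, 0.00152), with every Atg7-KO library above every cont. library. No other constitutive subunit was called higher. Psmd11, a lid subunit with the fitted change nearest 0 among the non-ATPases (0.25 ± 0.45, 0.702), was at 418, 251 and 97.7 CPM in cont., a wider range than the 270 to 325 CPM of the Atg7-KO libraries. Psmd1 (923, 672 and 281 CPM) and Psmd7 (183, 154 and 74.9 CPM) had the same order in cont. These were the 3 of 31 constitutive genes that stood more than 1.5 times higher in cont. replicate 1 than in replicate 3, while 11 stood more than 1.5 times lower there. The cont. libraries thus disagreed in opposite directions for different subunits, and the reason was not tested.

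Among the 7 assembly chaperones, 1 was called lower and 1 higher, 14.3% each way, which is no more than the 18.1% and 19.9% of all tested genes. Psmg3, a member of the complexes that start the alpha ring, fell from between 12.7 and 22.5 CPM to 7.42, 9.69 and 4.12 CPM (-1.35 ± 0.33, 0.00659). Psmd10, also called gankyrin, a chaperone of the 19S base, rose from 6.36, 7.75 and 7.17 CPM to 13.2, 14.0 and 16.9 CPM (1.03 ± 0.25, 0.00607). It was counted 10 to 80 times per library and lost its call when all libraries were thinned to the size of the smallest (0.80, adjusted p = 0.371). Psmg4 was nearest 0 (0.45 ± 0.25, 0.181), and Psmd5, another base chaperone, stood at 0.79 without passing the test (0.0643).

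The inducible catalytic subunits were higher, but not all of them. Psmb8, which replaces Psmb5, was at 28.6, 52.1 and 42.2 CPM in cont. and at 88.4, 93.3 and 123 CPM in Atg7-KO (1.29 ± 0.24, 0.00115). Psmb9, which replaces Psmb6, was at 17.2, 20.4 and 20.3 CPM in cont. and at 36.4, 31.6 and 43.0 CPM in Atg7-KO (0.92 ± 0.22, 0.00524). For both genes every Atg7-KO library was above every cont. library. Psmb10, which replaces Psmb7, was at 36.2, 84.2 and 39.7 CPM in cont. and at 52.4, 60.3 and 68.2 CPM in Atg7-KO (0.17 ± 0.29, 0.678, 95% interval -0.46 to 0.80). Its highest library was cont. replicate 2, and without that library it was called higher at 0.64 (adjusted p = 0.033). That library was also the only female one in cont., and with sex as a covariate Psmb10 stood at 0.09 (adjusted p = 0.827). Exons of Psmb9 overlap those of Tap1 on the opposite strand, and those of Psmb8 and Psme1 overlap Gm20496 and Emc9, and with no strand setting stated for the counts such reads cannot be assigned with certainty. Exons of genes called lower overlap other genes too, among them Psmb5 (Mir686), Psmb7 (Nek6), Psma5 (1700010K24Rik), Psmc3 (Slc39a13), Psmd3 (Gm12356) and Psmg3 (Gm26938).

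**Figure D3:**
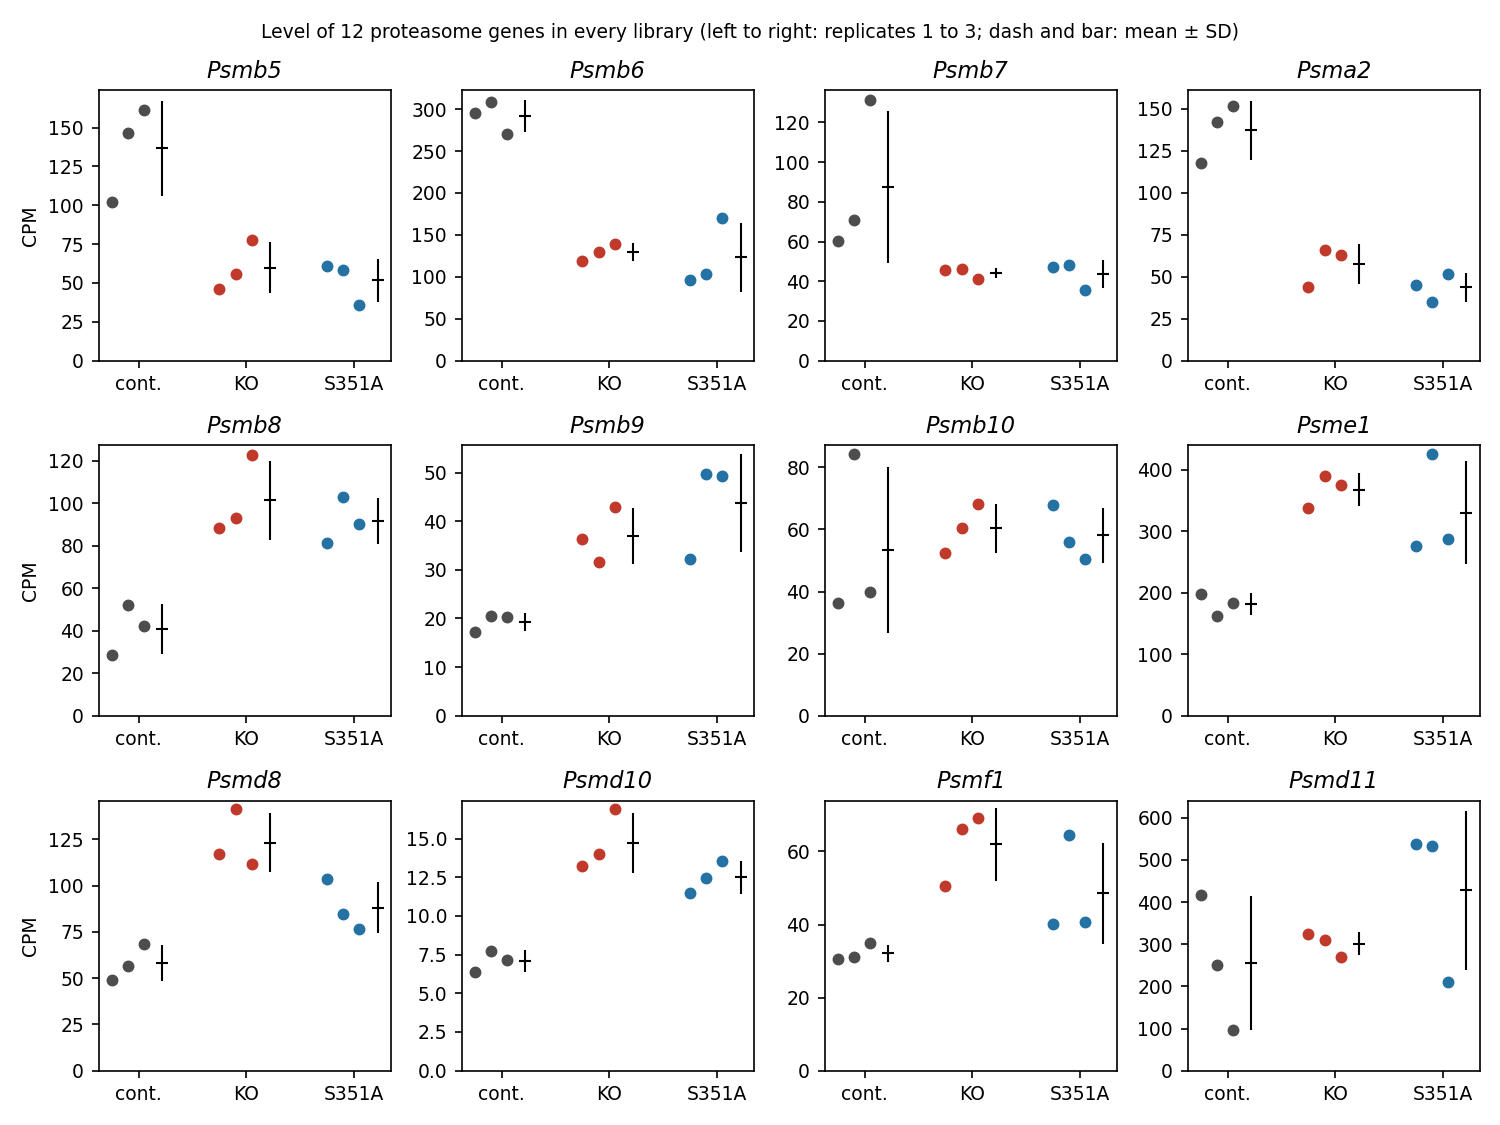
CPM (vertical axes, from 0) of 12 proteasome genes in every library, in the order of replicates 1 to 3 within cont. (grey), Atg7-KO (red, KO) and S351A (blue), with the mean and SD of each group beside the points. Psmb5, Psmb6, Psmb7 and Psma2 are lower and Psmb8, Psmb9, Psme1, Psmd8, Psmd10 and Psmf1 higher in every Atg7-KO library than in every cont. library, while Psmb10 and Psmd11 overlap.

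Among the regulators of the core, Psme1 was at 197, 162 and 184 CPM in cont. and at 338, 390 and 374 CPM in Atg7-KO (1.02 ± 0.23, 0.0036). Psme2, its partner in the PA28 ring, was at 136, 191 and 161 CPM against 162, 200 and 223 CPM (0.26 ± 0.22, 0.389, 95% interval -0.23 to 0.75), and the groups overlapped. The copy Psme2b, which can share reads with Psme2, stood at 0.60 ± 0.37 (0.229) on 2 to 93 counts per library. Psme4, or PA200, a nuclear activator, was higher in every Atg7-KO library with an adjusted p of 0.034, but its log2 fold change of 0.51 was under the minimum. Psme3, the nuclear activator that interferon does not induce, stood at -0.09 ± 0.24 (0.806). Psmf1, also called PI31, which binds the core and inhibits it in vitro, rose from 30.5, 31.0 and 34.9 CPM to 50.6, 66.0 and 69.1 CPM (0.93 ± 0.22, 0.00486).

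A ratio of 2 genes within a library does not depend on how libraries are scaled. Psmb8 took 22.9% ± 2.91 of the counts of Psmb8 and Psmb5 together in cont. (SD, n = 3) and 63.2% ± 2.30 in Atg7-KO. Psmb9 took 6.23% ± 0.75 of the counts of Psmb9 and Psmb6 in cont. and 22.2% ± 2.28 in Atg7-KO. Psmb10 took 38.3% ± 15.6 of the counts of Psmb10 and Psmb7 in cont., where the libraries ran from 23.2% to 54.3%, and 57.6% ± 4.45 in Atg7-KO. Of the counts of all 6 genes, the inducible 3 took 15.2%, 23.0% and 15.4% in the cont. libraries and 45.7%, 44.4% and 47.5% in those of Atg7-KO. Their ratio to the constitutive 3 was 3.97-fold higher in Atg7-KO, a difference of 1.99 on the log2 scale between means of -0.24 ± 0.09 (SD, n = 3) and -2.23 ± 0.42. The groups did not overlap, and the exact two-sided permutation p was 0.1, the smallest that 3 against 3 allows, with an adjusted p of 0.188 over 15 tests of 5 ratios in 3 comparisons. Longer genes give more counts, so these shares compare groups and do not give the makeup of the particle.

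The ratio was 5.77-fold higher for Psmb8 over Psmb5 and 4.28-fold higher for Psmb9 over Psmb6, in both cases without overlap (exact permutation p = 0.1 each). For Psmb10 over Psmb7 it was 2.26-fold higher on average, but cont. replicate 2 lay within the Atg7-KO range (exact permutation p = 0.2). The ratio of Psme1 and Psme2 to Psme3 and Psme4 was 1.3-fold higher, also without overlap (exact permutation p = 0.1).

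**Figure D4:**
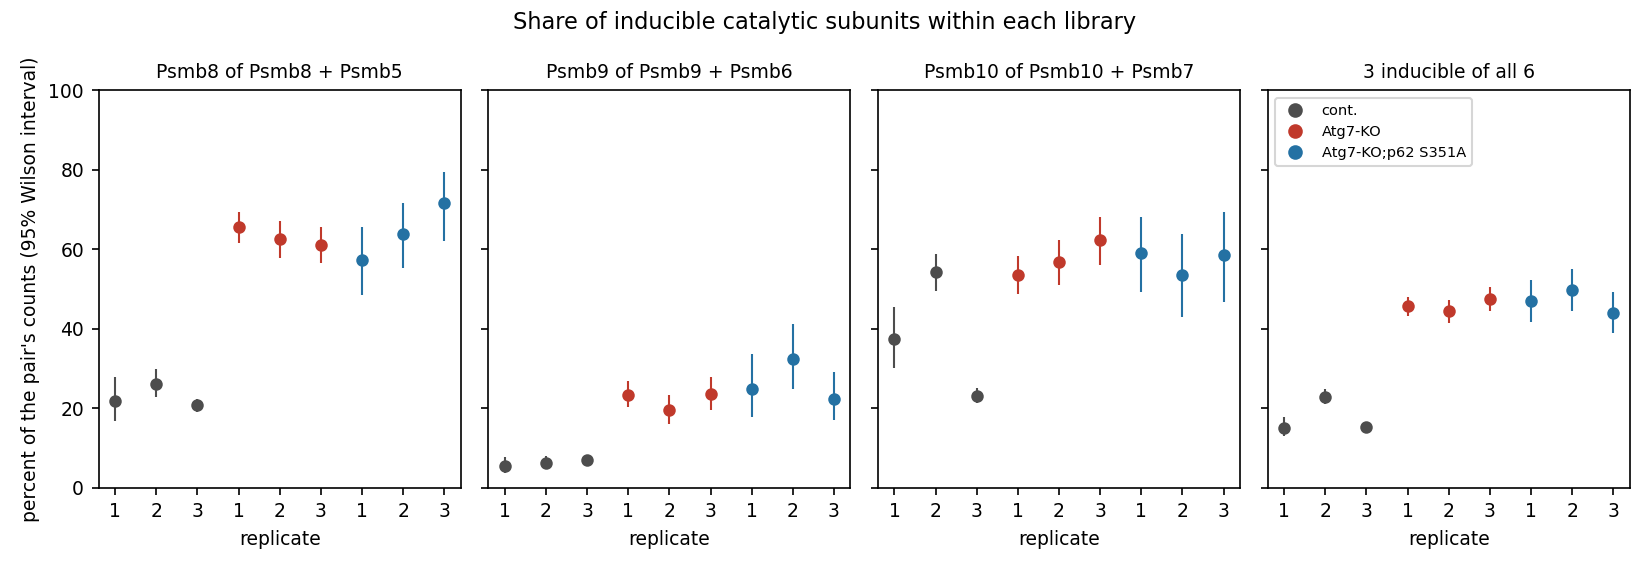
Percent of counts from the inducible subunit of each catalytic pair, and from the 3 inducible subunits of all 6 genes (vertical axes, 0 to 100), in each of the 9 libraries of cont. (grey), Atg7-KO (red) and S351A (blue), with 95% Wilson intervals that cover counting error only. For the Psmb8 and Psmb9 pairs and for all 6 genes, the 6 Atg7-KO and S351A libraries lie above the 3 cont. libraries. For the Psmb10 pair, cont. replicate 2 at 54.3% lies among them.

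How far the constitutive genes fell depends on the scaling of the libraries. As a share of all counts, the 31 constitutive genes made up 0.360% ± 0.0506 (cont.), 0.364% ± 0.00678 (Atg7-KO) and 0.379% ± 0.0456 (S351A) with SD over n = 3 libraries, so their summed share was not lower in the mutant livers. Its parts differed. The 14 genes of the 20S core took 0.169% ± 0.0104 in cont. and 0.144% ± 0.0061 in Atg7-KO, without overlap, while the 11 non-ATPases of the cap took 0.135% ± 0.0449 and 0.166% ± 0.0125, with cont. libraries from 0.0867% to 0.176%. The inducible 5 took 0.0360% ± 0.00433, 0.0864% ± 0.00695 and 0.0779% ± 0.0112. With libraries scaled by their totals, the median of all tested genes moved to 0.51 in Atg7-KO against cont., the median of the constitutive genes to -0.25 and that of the inducible genes to 1.47. Only Psma2, Psmb4 and Psmb5 were then called lower among the 47, and 11 were called higher, which is 3 against 11 where TMM scaling gave 18 against 6. Of all tested genes, 7.15% were called lower and 38.3% higher with this scaling. A change of scaling moves all genes by about the same amount, so the distance of a class from the median gene is no check on it. The 6 hepatocyte markers Alb, Apoa1, Ttr, Apob, Cps1 and Serpina1c, most of which encode abundant secreted proteins, took 6.74% ± 2.15 of all counts in cont. and 4.23% ± 0.24 in Atg7-KO, with cont. replicate 1, at 4.30%, within the Atg7-KO range. Of the 6, 5 were called lower there, where 18.1% of all tested genes were, Serpina1c the furthest (-2.54, adjusted p = 9.07e-05), with only Apob, at 0.22, not called.

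**Figure D5:**
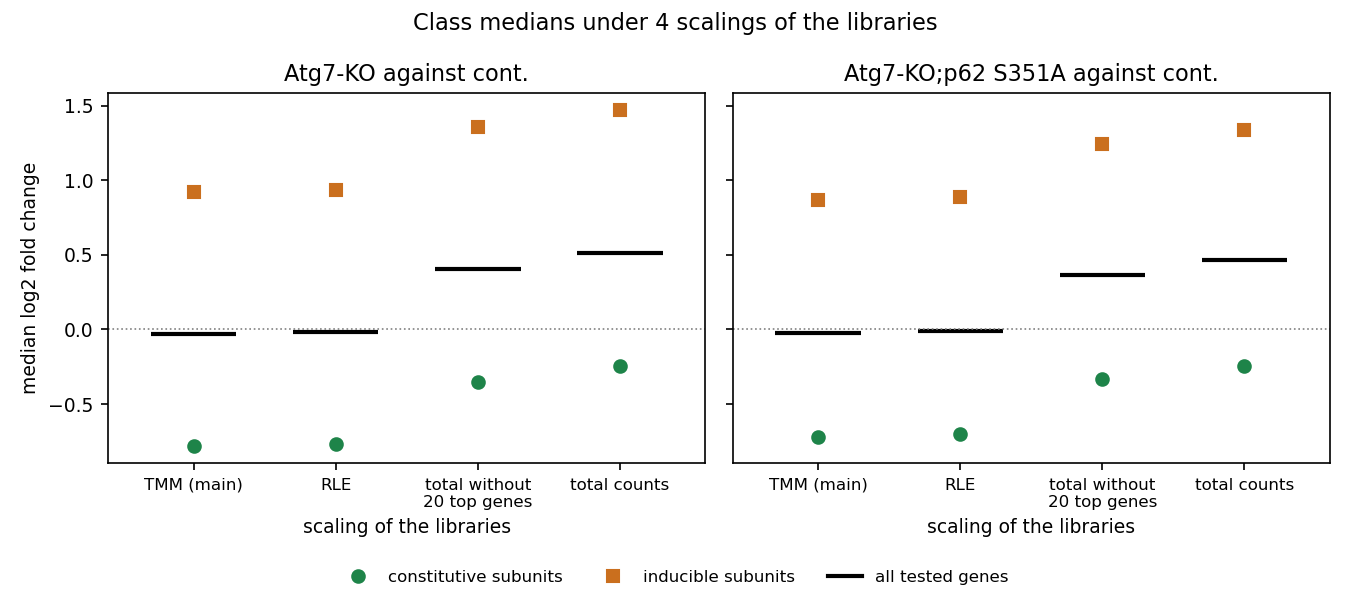
Median log2 fold change (vertical axis) of the 31 constitutive genes (green circles), the 5 inducible genes (orange squares) and all tested genes (black lines) against cont., under 4 ways of scaling the libraries, for Atg7-KO (left) and S351A (right). All 3 medians shift upward together when totals are used, that of all genes in Atg7-KO from -0.03 to 0.51.

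No proteasome gene passed the threshold between livers with mutant and with wild-type p62. In S351A against Atg7-KO, none of the 47 genes was called higher, where 0% of all genes were, and none lower, where 0.00893% were. By the edgeR test 1 gene (Psmd8) had an unadjusted p under 0.05, and DESeq2 and limma-voom also called none and had 1 such gene each. The median log2 fold change was -0.04 for the constitutive and -0.05 for the inducible genes, and that of all genes 0.01. One gene, Psma3, was higher in every S351A than in every Atg7-KO library, and 4 were lower (Psmc4, Psmc5, Psmd8 and Psmg4), where 7.67% and 9.23% of all tested genes did so. Most genes were measured loosely here. Psmb5 stood at -0.20 with a 95% interval from -0.82 to 0.41, Psmb8 at -0.15 (-0.67 to 0.38) and Psmb9 at 0.24 (-0.25 to 0.73), so that changes of 1.5-fold are within these intervals.

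Psmd8 came closest to a difference. It was at 103, 84.4 and 76.5 CPM in S351A, below each of the Atg7-KO libraries (112 to 141 CPM) and above each of the cont. libraries (49.0 to 68.4 CPM), and its difference from Atg7-KO was -0.48 ± 0.21 (unadjusted p = 0.0409, adjusted p = 0.755). Psmc4 was next (-0.35 ± 0.19, unadjusted p = 0.0983, adjusted p = 0.838). Psmf1 (-0.35) and Psmd10 (-0.23) stood below their Atg7-KO level as well, with overlapping libraries. The share of inducible counts among the 6 catalytic genes was 47.0%, 49.9% and 44.0% in S351A, on either side of the Atg7-KO values (exact permutation p = 0.7).

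Set against cont., S351A livers showed a like pattern, in a comparison that shares its cont. libraries with the one above. In S351A against cont., 17 of the 47 genes were called lower, where 13% of all genes were, and 3 higher, where 15.6% were. The 3 were Psmb8 (1.14 ± 0.25, 0.00484), Psmb9 (1.16 ± 0.23, 0.00334) and Psme1 (0.86 ± 0.23, 0.0135), the last of which lost its call without S351A replicate 2 (0.61, adjusted p = 0.0831). The 17 lower genes were all constitutive subunits, with Psma2 at -1.65 ± 0.24 (0.000459), Psmb5 at -1.41 ± 0.28 (0.00327) and Psmc4 at -1.14 ± 0.19 (0.00117). Psmd8 (0.59, 0.0553), Psmd10 (0.80, 0.0587) and Psmf1 (0.58, 0.0805) were higher in every S351A than in every cont. library and did not pass the test. Psmd8 lay close to the threshold and was called under 7 alternatives, among them RLE scaling (0.61, adjusted p = 0.0481), DESeq2 (0.0401), limma-voom (0.0407) and the fit without cont. replicate 3 (0.72, 0.0357). Psmd10 was called under 3 alternatives and Psmf1 under 2, both total-count scalings in each case and for Psmd10 also where every library had to hold at least 10 counts (0.86, 0.0258). Without S351A replicate 1, the count of lower genes was 11, where 7.63% of all tested genes were called lower. With total counts as the scaling 7 were lower and 10 higher, where 4.57% and 31.2% of all tested genes were.

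Genes outside the symbol pattern that serve the proteasome were also called in both directions. Of 30 cofactors, 9 (30%) were called lower in Atg7-KO and 2 (6.67%) higher, where 18.1% and 19.9% of all tested genes were, with a median of -0.41, which with total counts as the scaling became 0.14, with 4 lower and 3 higher. With that scaling the median of all tested genes was 0.51, and 7.15% of them were called lower and 38.3% higher. Pomp, which helps the core mature, fell by 1.31 (SE 0.29, adjusted p = 0.00355), and Ddi2, the protease that cuts NRF1 into its active form, had the lowest fitted value of the list (-2.85, 0.00172). That value rests on 20, 2 and 8 counts in Atg7-KO, 1 of which is under the floor of 3, so its size is loosely known. Zfand2a, an arsenite-inducible protein that binds the proteasome, rose most (1.19, 0.00938). Adrm1, a ubiquitin receptor of the cap, stood at -0.41 (0.126). Nfe2l1 was at 0.00 (0.999) and Nfe2l2 at -0.77 (0.0782), both levels of mRNA, which do not give the activity of these factors. Of 6 NRF2 targets, 4 were called higher. These targets were taken because the study measured them in livers of these genotypes, so they are no independent evidence. The furthest of the targets was Nqo1 at 4.46 (adjusted p = 4.68e-06) and the lowest Sqstm1, which encodes p62, at 0.38 (0.169). All 6 were lower in every S351A than in every Atg7-KO library, where 9.23% of all tested genes were, with a median of -0.74, and 4 had an unadjusted p under 0.05, where 6.6% of all tested genes did. None was called in that comparison by edgeR or limma-voom, 2 were by DESeq2, and Nqo1 was by edgeR when no filter on low counts was used.

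Interferon response genes were higher together with the inducible subunits. Of 33 such genes, 24 (72.7%) were called higher in Atg7-KO, where 19.9% of all tested genes were, and none lower, with a median of 1.26. In S351A against cont. 21 (63.6%) were called higher, where 15.6% of all tested genes were. Cxcl10, a chemokine, rose most (4.91, adjusted p = 1.02e-06). Nlrc5, the activator of MHC class I genes (0.93, 0.0224), and Tap1, the peptide transporter (0.73, 0.0125), were called higher. Irf1 stood lowest, at -0.44 (0.231). None of the 33 was called in S351A against Atg7-KO by edgeR, DESeq2 or limma-voom, and none had an unadjusted p under 0.05 there.

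Markers of leukocytes, which carry immunoproteasomes, were higher in the same libraries, and their counts of calls stand beside the 19.9% of all tested genes that were called higher in Atg7-KO. The 7 pan-leukocyte markers summed to 94.1 to 125 CPM in the cont. libraries, to 295 to 349 CPM in those of Atg7-KO and to 228 to 283 CPM in those of S351A, and 6 of 7 were called higher in Atg7-KO, from Lcp1 at 0.52 (not called) to Laptm5 at 2.55. The 8 macrophage markers summed to 217 to 323, 451 to 558 and 364 to 386 CPM, with 7 called higher and Clec4f, of Kupffer cells, at -0.16. The 6 genes of antigen-presenting cells summed to 62.3 to 113, 423 to 610 and 361 to 695 CPM, and the 5 that were tested were called higher, Cd74 at 2.62 and Xcr1 at 1.54. Xcr1 had only 1, 4 and 7 counts in cont. and 12, 5 and 6 in Atg7-KO, and it passed the filter only through the S351A libraries. Its change is thus loosely known. The 12 lymphocyte markers summed to 11.4 to 18.0, 54.6 to 81.9 and 50.6 to 68.3 CPM. Only 4 of them passed the filter, and 3 were called higher. These were Ccl5 (4.28), Ms4a4b (2.14, adjusted p = 0.00161) and the T cell gene Cd8a (adjusted p = 0.00099), which had 0, 3 and 2 counts in cont. and 40, 14 and 15 in Atg7-KO. All 3 passed the filter only through mutant libraries in which they were high. Their calls were thus largely settled by the filter and give no support of their own. The T cell genes Cd3e, Cd3d, Cd3g and Cd4 did not pass the filter. Their part in the rise of Psmb8, Psmb9 and Psme1 was not tested.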

How the data were processed

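Single-end reads were trimmed (Trim Galore), aligned (STAR, mm10) and quantified (RSEM) by the authors, whose deposited values are expected counts, not scaled between libraries. Tool versions, annotation and strand setting were not given in the sources used here. Expected counts were rounded and tested with edgeR 4.0.16 in R 4.3.3 (filterByExpr, minimum count 10, minimum total 15; TMM factors; 1 quasi-likelihood model of 3 groups over all 9 libraries). SE values follow from the F statistic and 95% intervals use its 12.3 degrees of freedom. Ratios used a pseudocount of 0.5 and exact permutation tests (SciPy 1.17.1). Shares have Wilson intervals, and these and the floor cover counting error alone, as PCR copies of a molecule could not be recognised. Positions and exon overlaps come from GENCODE M21, in which all 50 symbols were found. Scripts were tested on simulated data.

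Members and lists were chosen with earlier results of these data known. Named genes are the 8 catalytic and PA28 genes, the largest, smallest and nearest-0 change of each class in Atg7-KO against cont., genes called against most of their class, and the 2 smallest p-values in S351A against Atg7-KO, with further genes added after their values were seen. From each list outside the pattern, the largest and smallest change and 8 regulators were named. Some of these genes, and 1 promoter motif, are not reported here. Psme2b, Psma8 and Psmb11 were set apart after the classes had been drawn up. Symbols of Paaf1 and Tf were not matched.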

Additional observations from a re-analysis of the deposited data

How the results depend on the processing

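With total counts as the scaling, 11 genes passed as higher and 3 as lower in Atg7-KO against cont., where 38.3% and 7.15% of all tested genes did, and 10 and 7 did in S351A against cont., where 31.2% and 4.57% did. The constitutive medians were then -0.25 and -0.24 and the inducible medians 1.47 and 1.34. With totals taken without the 20 genes with most counts, 11 and 8 genes were called in the first comparison (33.7% and 8.72% of all tested genes) and 9 and 8 in the second (27.1% and 5.7%), with constitutive medians of -0.35 and -0.33 and inducible medians of 1.36 and 1.25. In S351A against cont., 5 genes were called higher where every library had to hold at least 10 counts (13.6% of all tested genes). With the 6 compared libraries alone, 10 were called lower (8.04% of all tested genes). At an adjusted p under 0.01, 10 were likewise called lower, and no share of all tested genes is given for that cut.

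Leaving out each library in turn, the constitutive median lay between -0.88 (without cont. replicate 1) and -0.58 (without cont. replicate 3) in Atg7-KO against cont. and between -0.88 and -0.62 in S351A against cont. In the latter comparison, from 2 genes without S351A replicate 2 (10.9% of all tested genes) to 5 without cont. replicate 3 (13.1%) were called higher. From 11 without S351A replicate 1 (7.63% of all tested genes) to 19 without cont. replicate 1 (13.9%) were called lower. The difference of the catalytic ratio between S351A and Atg7-KO, 0.06 on the log2 scale, was -0.10 after thinning to the smallest library. None of the proteasome genes tested was called in that comparison under any alternative run. For single genes and ratios, 1053 values kept their side of the threshold, 26 gained a call, 22 lost one, 1 ratio moved by more than its spread and no called change turned. The causes were not tested.

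Same-numbered libraries deviated together only weakly (r from -0.04 to 0.31), so the numbers were not taken as pairs. The replicates numbered 1 were all male and those numbered 2 all female, and their correlations ran from 0.24 to 0.31 and from 0.07 to 0.18. With a replicate block, Atg7-KO against cont. gave 7 higher and 17 lower genes, where 20.5% and 18% of all tested genes passed. S351A against cont. gave 3 and 17, where 16.6% and 13.8% passed, and no median changed sign. With sex as a covariate the counts were 6 and 19 (19.9% and 17.7% of all tested genes) and 3 and 19 (15.6% and 13.1%). The S351A libraries were the least deep, and 3 counts were worth up to 3.73 CPM there, above which each of the 47 tested genes lay in every S351A library, except Psme2b in 1 library.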
